A study of Vitis vinifera with 36 samples.

Results

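The winter season berries of ‘Victoria’ grapes were compared with the summer season berries at E-L 36. The study used this stage of the modified Eichhorn-Lorenz scale for the completion of veraison, the onset of ripening. The libraries were taken by their labels, and 6 of the 36 RNA-seq libraries of the series belonged to this comparison, 3 from each season. The study followed ‘Victoria’ and ‘Muscat Hamburg’ grapes, cropped both in summer and in winter in southern China, at the onset of veraison (E-L 35), at its completion (E-L 36) and at harvest (E-L 38). It asked how the cropping season changed gene expression in the flavonoid pathway.

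Both ‘Victoria’ groups came from the same 2014 vintage, from vines on SO4 rootstock under a rain shelter, and berries were de-seeded before RNA extraction. The summer crop grew on shoots forced with hydrogen cyanamide in late winter. The winter crop grew on the same kind of vines, pruned, defoliated and forced again in August, with the agent put only on the terminal bud and near the pruning wound. Season, pruning and forcing, and weather therefore cannot be told apart here, and 1 vintage gives no spread between years. The replicates were described as biological, each a pool of berries, and in bulk berries fewer cells of a type and less RNA per cell cannot be told apart. The gene identifiers of the files carry no description, so lists of cell type markers could not be read and seed or leaf residue was not tested.

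Flavonoids are built from phenylalanine. A common upstream route (PAL, C4H, 4CL, CHS, CHI and F3H) gives dihydroflavonols, from which separate branches lead to flavonols, to flavan-3-ols and tannins, and to anthocyanins. In grape berries, MYB and bHLH transcription factors with a WD-repeat protein set the activity of each branch, and light-signalling factors act on the flavonol branch.

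Total estimated counts were 12678743, 9061555 and 9837224 in the summer replicates 1, 2 and 3 and 11128820, 9719261 and 9723364 in the winter replicates. Summer replicate 1 stood apart from the other summer libraries. Its log2 CPM (log2 counts scaled to library size) over all genes tested correlated with the mean of the ‘Victoria’ summer libraries of E-L 38 at r = 0.979 and with the other two summer libraries of its own stage at r = 0.956. Summer replicates 2 and 3 correlated with each other at r = 0.984. In the summer libraries of E-L 38, replicate 1 correlated with E-L 36 summer replicates 2 and 3 at r = 0.974 and r = 0.975, with E-L 36 summer replicate 1 at r = 0.957, and with replicates 2 and 3 of its own stage at r = 0.975 and r = 0.963. These coefficients are descriptions across genes, which are not independent. The median standard deviation of a gene's log2 CPM was 0.292 in the summer group (n = 3), 0.118 in summer without replicate 1 (n = 2) and 0.127 in the winter group (n = 3). The labels were kept as deposited, and whether these first summer replicates of the 2 stages were exchanged was not tested. The total counts of calls, and the fold changes of the flavonoid genes past the threshold, are given with and without E-L 36 summer replicate 1. Where no second count is printed, the count is with that library included.

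Across the genome, 1965 of the 19736 genes tested were upregulated in the winter season berries (9.96%) and 2689 were downregulated (13.6%), where a call needed an edgeR quasi-likelihood p that stayed within 0.05 after Benjamini-Hochberg adjustment, together with a 2-fold change or more. Together 23.6% of the genes passed. Without summer replicate 1, 2083 genes (10.3% of 20167) were upregulated and 2682 (13.3%) downregulated. Of the 4654 calls, 3969 stayed with the same sign without that library, 684 were lost and 0 reversed, while 738 genes of both fits were gained. The median log2 fold change over all genes was -0.02, or 0.01 without that library.

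Most calls were of moderate size. Among the upregulated genes 1190 changed by 1 to 2 on the log2 scale, 427 by 2 to 3, 187 by 3 to 4 and 161 by more than that. Among the downregulated genes the same classes held 1601, 650, 243 and 195. In 212 of the upregulated genes every summer library had at most 3 counts, and in 324 of the downregulated genes every winter library did. These changes lie mostly at low levels, since only 5 of the 212 reached a mean of 10 FPKM in winter and only 3 of the 324 reached it in summer. The median log2 fold change was 1.62 in the upregulated and -1.62 in the downregulated genes with such genes set at the bound that 3 counts per library allow, and 1.70 and -1.74 as fitted. The plot of mean FPKM shows calls of both directions over the whole range of expression.

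**Figure D1:**
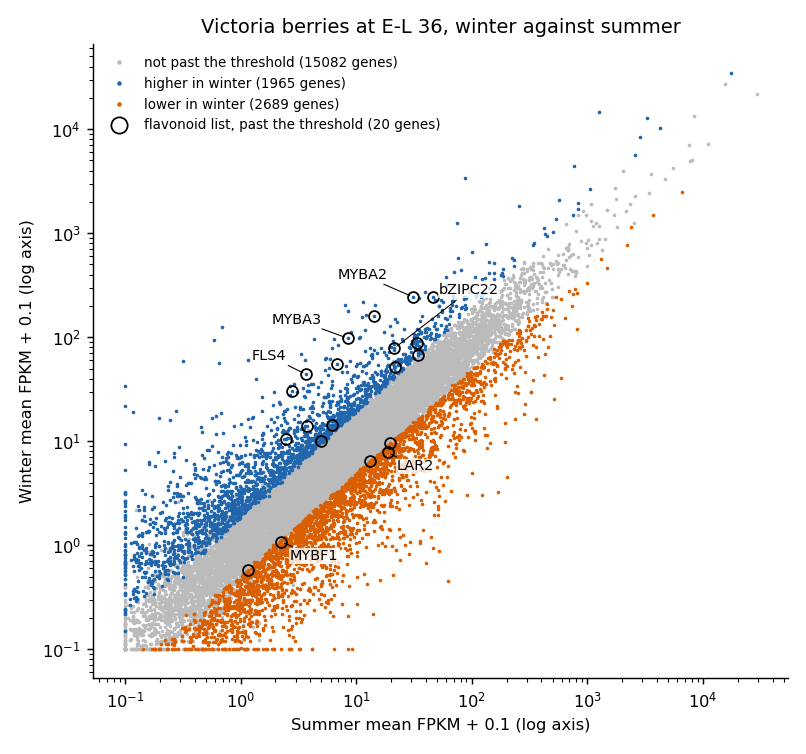
Mean FPKM plus 0.1 of each of the 19736 genes tested in the 3 summer libraries (x axis, log scale) and the 3 winter libraries (y axis, log scale), coloured by call. The 1965 upregulated genes lie mostly above and the 2689 downregulated genes mostly below the grey genes, which did not pass. Calls rest on fitted counts and an adjusted p, so the colours can overlap. The 20 circled genes are those of the flavonoid list past the threshold with more than 3 counts in some library.

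Genes were divided by mean FPKM into 4 classes of 4934. The lowest class, up to 1.75 FPKM, had 13.1% upregulated and 17.7% downregulated genes. In the highest class, from 19.9 FPKM upwards, 7.88% were upregulated and 11.5% downregulated. In each class more genes were downregulated than upregulated. The share of each library's counts taken by these genes moved the other way round. The upregulated genes, chosen on these libraries, took 7.96%, 5.89% and 5.97% of the counts in the summer replicates and 19.7%, 19.6% and 19.5% in the winter replicates. The downregulated genes took 14.7%, 16.2% and 16.1% in summer and 5.05%, 5.12% and 5.19% in winter.

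The largest changes belonged to genes without a description in the files. VIT_207s0104g01340 was listed at 0 counts in all summer libraries and had 298, 314 and 258 counts in the winter libraries, which is at least 101.3-fold higher against a floor of 3 counts per library. VIT_202s0025g04230 was also at 0 in summer, with 279.2, 223.0 and 205.2 estimated counts in winter, at least 81.75-fold higher. Neither gene was seen in any of the summer libraries compared here, replicate 1 included.

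In the opposite direction, VIT_207s0129g00240 had 523, 837 and 723 counts in summer and 4, 3 and 5 in winter, a log2 fold change of -7.36 ± 0.63 (SE). VIT_211s0016g04510 had 40, 42 and 46 counts in summer and 0, 0 and 1 in winter, at least 13.6-fold lower. The seasons did not overlap in either gene. These 4 identifiers are the highest and lowest by fold change among genes that did not overlap and had a mean of at least 10 FPKM in a season. No gene of the flavonoid list was among the 10 highest or the 10 lowest of such genes.

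Some genes called in the same direction lay beside each other. Runs of at least 4 neighbouring identifiers with the same call numbered 7 for upregulated genes, holding 33 genes with the longest of 6, and 22 for downregulated genes, holding 105 genes with the longest of 8. One upregulated run of 5 identifiers starts with a VviF3H described below (VIT_218s0001g14310). Neighbouring copies can share reads, so members of a run are not independent. How many runs the shares of genes called (9.96% upregulated and 13.6% downregulated) would give by themselves was not tested.

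The season effect at E-L 36 was set against the genes that changed with ripening. From libraries of E-L 35 and E-L 38 alone, 153 genes were raised and 838 lowered from E-L 35 to E-L 38 in both seasons of ‘Victoria’. At E-L 36, 64 of the 153 raised genes were upregulated in winter (41.8%, beside 9.96% of all genes tested) and 7 were downregulated (4.58%). Of the 838 lowered genes, 380 were downregulated in winter (45.3%, beside 13.6%) and 38 were upregulated (4.53%). The median log2 fold change was 0.71 for the raised genes and -1.03 for the lowered genes, or -0.93 with genes at the count limit set at their bound. Without summer replicate 1, the counts were 67 and 5 for the raised genes and 33 upregulated and 388 downregulated for the lowered genes, with medians of 1.06 and -1.16. The lists themselves rest in part on E-L 38 summer replicate 1. An alternative chosen after seeing the data left out the first summer replicate of both stages and drew the lists again. It gave 72 raised genes upregulated and 419 lowered genes downregulated in winter. The counts depended on other settings too: the 64 became 42 where each library compared needed 10 counts or more, and 29 with limma on log2(FPKM + 1), and the 380 became 176 and 222.

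Seen by library, the median log2 CPM of the raised genes was 3.19, 2.82 and 2.75 in the summer replicates and 4.17, 4.09 and 4.14 in the winter replicates. Summer replicate 1 was the highest of the summer libraries, and the seasons did not overlap. For the lowered genes the medians were 1.25, 1.88 and 1.68 in summer and 0.81 in each winter library, with summer replicate 1 the lowest of its group. In the summer libraries of E-L 38 the raised genes had medians of 2.78 to 3.35, so the E-L 36 winter libraries lay above the harvest stage of summer. The winter libraries of E-L 38 had 4.30 to 4.36. At E-L 35 the raised genes had 2.26 to 2.59 in winter and 1.17 to 1.30 in summer. The lowered genes had 2.22 to 2.38 in winter and 2.99 to 3.20 in summer at E-L 35. At E-L 38 they had 0 to 0.36 in winter and 1.19 to 1.43 in summer. The offset between seasons was thus not particular to E-L 36. The 2 seasons were labelled with the same stage, and a difference of season and a difference in how far berries had ripened at that label cannot be told apart.

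**Figure D2:**
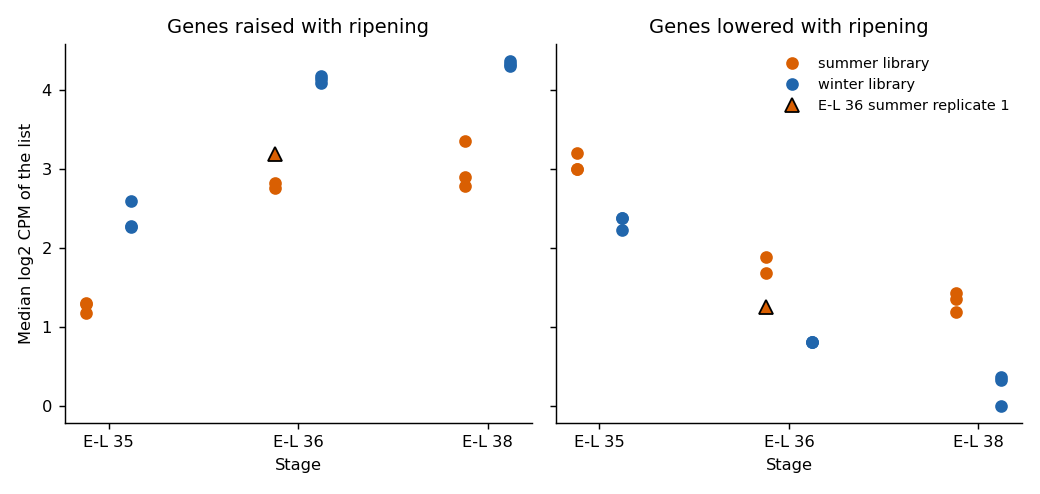
Median log2 CPM of the 153 genes raised (left) and the 838 genes lowered (right) from E-L 35 to E-L 38 in both seasons, with 1 point per ‘Victoria’ library, by stage and season. At E-L 36 the winter libraries (4.09 to 4.17) lie above all summer libraries (2.75 to 3.19) for the raised genes and below them for the lowered genes, and summer replicate 1 (triangle) is the summer library nearest to winter.

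The flavonoid list held 64 genes, all tested: 23 of the upstream pathway, 23 of the downstream branches and 18 regulators. The list is the study's own and was drawn up with these samples, with its enzymes selected for differential expression, so their counts are no independent evidence. In winter season ‘Victoria’ berries of that stage, 15 were upregulated (23.4%, beside 9.96% of all genes) and 6 downregulated (9.4%, beside 13.6%), and 43 did not pass. Without summer replicate 1, 19 were upregulated and 5 downregulated, with 17 calls kept, 4 lost and 7 gained. The 6 downregulated genes were few and close to the threshold: their number was 1 without winter replicate 1 or winter replicate 2, 2 without winter replicate 3, 1 with only the libraries compared or with limma on FPKM, and 3 without a filter on low counts. Leaving aside genes with at most 3 counts in every library, the seasons did not overlap in 29 of the 64, beside 55.9% of all genes tested. The median log2 fold change was 0.21 as fitted and 0.30 with genes at the count limit at their bound or, for 6 genes at the limit in both seasons, left out; that of all genes was -0.02 and -0.01. Reads were divided between similar genes in 25 members, whose estimated counts were not whole numbers in at least 1 library, and the level of a single copy is uncertain there.

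**Figure D3:**
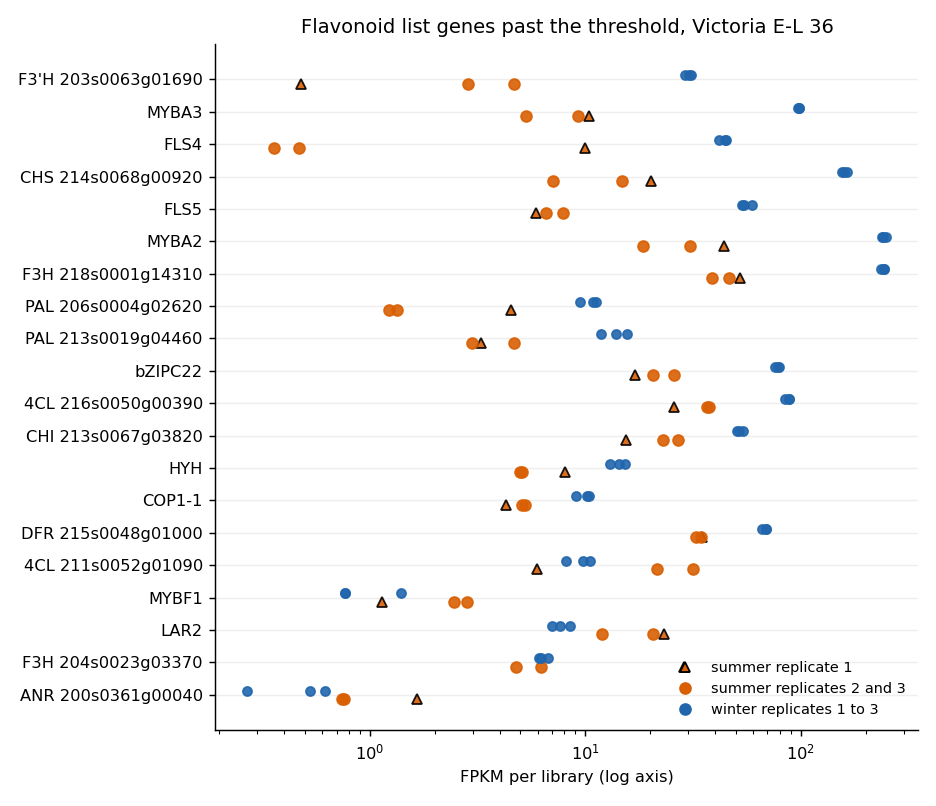
FPKM per library (log axis) of the 20 flavonoid list genes past the threshold with more than 3 counts in some library, in order of log2 fold change, with summer replicate 1 as a triangle. In the upper 15 genes the 3 winter libraries lie above all summer libraries, and in F3H VIT_204s0023g03370 the triangle at 28.6 FPKM lies apart from the other 5 libraries (4.77 to 6.68).

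In the upstream pathway, 6 of 23 genes were upregulated (26.1%, beside 9.96% of all genes) and 2 downregulated (8.7%, beside 13.6%), and 1 gene each of CHS, CHI and F3H was among those upregulated. Phenylalanine ammonia-lyase (PAL) opens the route by turning phenylalanine into cinnamate, and 2 of its 11 copies were upregulated. VviPAL (VIT_206s0004g02620) had 4.50, 1.34 and 1.23 FPKM in summer and 11.2, 10.9 and 9.41 in winter, with a log2 fold change of 2.12 ± 0.48 (SE, adjusted p = 5.58e-04) that was 3.10 without summer replicate 1. VviPAL (VIT_213s0019g04460) had 3.27, 4.66 and 2.98 FPKM in summer and 13.9, 15.6 and 11.8 in winter (1.97 ± 0.29; 1.92 without that library). Both copies were higher in every winter library than in every summer library.

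Of the 7 PAL copies with identifiers beginning VIT_216s0039, 0 passed in edgeR (1 at an unadjusted p under 0.05; 0 in DESeq2 and 1 in limma on log2(FPKM + 1)). Summer replicate 1 was the lowest of the summer libraries in 9 of the 11 copies. Summed over the 11 copies, PAL reached 16.2, 92.9 and 89.4 FPKM in the summer replicates and 75.0, 71.8 and 63.4 in winter. The summed level of winter thus lay between summer replicate 1 and the other summer libraries. In VIT_216s0039g01110, FPKM was 0.63, 6.08 and 7.32 in summer and 3.63, 1.86 and 2.07 in winter, and the log2 fold change was -0.81 (adjusted p = 0.228) with all libraries and -1.34 (adjusted p = 0.0191) without summer replicate 1. VIT_208s0040g01710 behaved likewise, from -1.14 (adjusted p = 0.0523) to -1.57 (adjusted p = 0.00578). These copies had estimated counts that were not whole in all 6 libraries.

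Cinnamate 4-hydroxylase (C4H), the second step, had 0 of 3 genes past the edgeR test, 0 at an unadjusted p under 0.05 and 0 in DESeq2 or limma, with log2 fold changes of 0.26 (VIT_206s0004g08150), -0.30 (VIT_211s0065g00350) and -0.89 (VIT_211s0078g00290). The last gene did not exceed 1.02 FPKM. 4-Coumarate-CoA ligase (4CL), which activates coumarate for chalcone synthesis, moved in both directions. Vvi4CL (VIT_216s0050g00390) had 25.7, 37.5 and 36.6 FPKM in summer and 87.8, 88.3 and 84.9 in winter (log2 fold change 1.44 ± 0.24, adjusted p = 1.64e-05; 1.30 without summer replicate 1). In Vvi4CL (VIT_211s0052g01090) the seasons overlapped, with 5.96, 31.7 and 21.4 FPKM in summer and 10.5, 8.11 and 9.71 in winter. Its downregulation (-1.004 ± 0.41, adjusted p = 0.0397) was lost in 10 of 17 alternative settings, and its log2 fold change was -0.51 (adjusted p = 0.339) without summer replicate 2 and -1.44 (adjusted p = 0.00159) without summer replicate 1.

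Chalcone synthase (CHS) makes the first flavonoid skeleton. VviCHS (VIT_214s0068g00920) had 20.2, 14.9 and 7.10 FPKM in summer and 159, 163 and 155 in winter, with a log2 fold change of 3.53 ± 0.35 (adjusted p = 3.17e-09), or 3.94 without summer replicate 1. VviCHS (VIT_205s0136g00260) was at 27.9, 10.2 and 6.51 FPKM in summer and 19.4, 22.1 and 18.6 in winter, so that summer replicate 1 lay above all winter libraries and the other summer libraries below them. The second gene did not pass with all libraries (0.43 ± 0.44, adjusted p = 0.426) and passed without summer replicate 1 (1.33, adjusted p = 0.0162).

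Chalcone isomerase (CHI) closes the ring of the chalcone. VviCHI (VIT_213s0067g03820) had 15.4, 27.0 and 22.9 FPKM in summer and 54.0, 51.5 and 50.7 in winter (log2 fold change 1.31 ± 0.21, adjusted p = 6.65e-06; 1.13 without summer replicate 1). VviCHI (VIT_213s0067g02870) was also higher in every winter library, at 18.8, 16.1 and 14.0 FPKM in summer and 23.8, 24.4 and 23.1 in winter, but its log2 fold change of 0.58 was below the fold condition. Without summer replicate 1 the log2 fold change of this second gene was 0.73. Whether the season effect differs between the 2 genes was not tested.

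Flavanone 3-hydroxylase (F3H) makes dihydroflavonols, where the branches divide. VviF3H (VIT_218s0001g14310) had 52.4, 46.4 and 38.9 FPKM in summer and 243, 244 and 235 in winter, a log2 fold change of 2.43 ± 0.19 (adjusted p = 5.58e-11), or 2.57 without summer replicate 1. VviF3H (VIT_204s0023g03370) had 28.6, 6.22 and 4.77 FPKM in summer and 6.68, 6.23 and 6.10 in winter. Its call as downregulated (-1.07 ± 0.45, adjusted p = 0.0479) rested on summer replicate 1, without which the log2 fold change was 0.28 (adjusted p = 0.561). The summed FPKM of the 2 genes was 81.0, 52.6 and 43.7 in summer and 250, 250 and 241 in winter.

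The plot of fold changes with and without summer replicate 1 shows where this library mattered. Of the 56 genes plotted, 28 moved by more than 0.3 on the log2 scale, most PAL copies among them, and 28 moved by 0.3 or less.

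**Figure D4:**
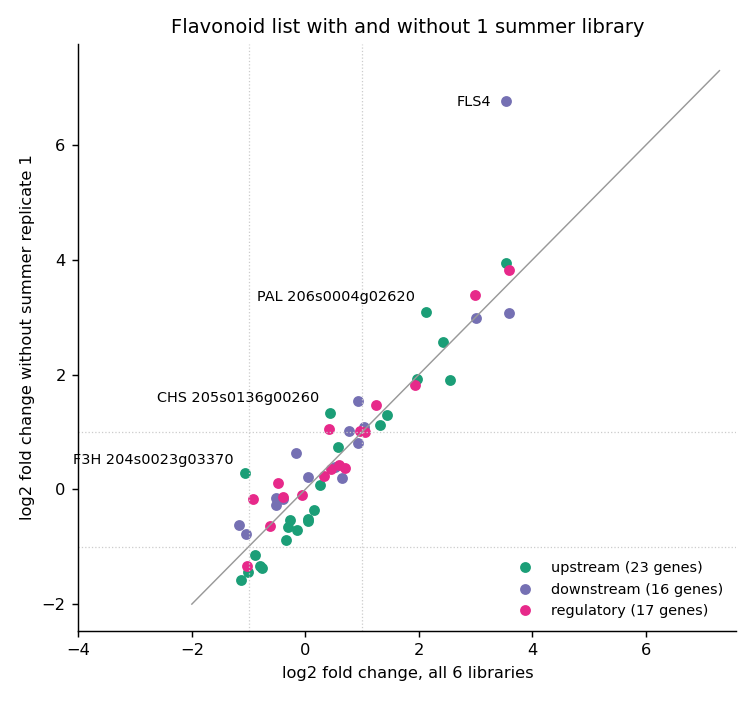
Log2 fold change, winter over summer, of the flavonoid list genes with more than 3 counts in a library of each season, with all 6 libraries (x axis) and without summer replicate 1 (y axis). The solid line marks equal values and the dotted lines a fold change of 2. FLS4 moves from 3.53 to 6.77 and F3H VIT_204s0023g03370 from -1.07 to 0.28.

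In the downstream branches, 4 of 23 genes were upregulated (17.4%, beside 9.96% of all genes) and 3 downregulated (13.0%, beside 13.6%), and without summer replicate 1 the counts were 6 and 1. The upregulated genes belonged to the hydroxylation step, to flavonol synthesis and to dihydroflavonol reduction. Flavonoid 3′-hydroxylase (F3′H) adds a hydroxyl group on the B ring, towards quercetin and cyanidin. VviF3′H (VIT_203s0063g01690) had 0.48, 4.68 and 2.85 FPKM in summer and 30.2, 29.1 and 30.9 in winter (log2 fold change 3.60 ± 0.59, adjusted p = 1.17e-05), with 3.07 without summer replicate 1 and estimated counts that were not whole in all 6 libraries. The second gene (VIT_209s0002g01090) had 5.31, 22.5 and 30.3 FPKM in summer and 29.9, 29.0 and 28.4 in winter, with overlap, and did not pass (0.65, adjusted p = 0.0646; 0.20 without summer replicate 1). The 6 flavonoid 3′,5′-hydroxylase genes, which lead to myricetin and delphinidin types, did not exceed 0.62 FPKM in any library. Of these, 0 passed in edgeR, 0 had an unadjusted p under 0.05, and DESeq2 called 1 downregulated.

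Flavonol synthase (FLS) draws dihydroflavonols into flavonols, and 2 of its 3 genes were upregulated. VviFLS5 (VIT_218s0001g03430) had 5.91, 7.88 and 6.58 FPKM in summer and 59.2, 54.8 and 53.2 in winter, with a log2 fold change of 3.01 ± 0.22 (adjusted p = 1.98e-11) and 2.99 without summer replicate 1. VviFLS4 (VIT_218s0001g03470) had 9.94, 0.47 and 0.36 FPKM in summer and 44.7, 45.1 and 41.6 in winter. Summer replicate 1 lay between the other summer libraries and the winter libraries, and the log2 fold change of VviFLS4 was 3.53 ± 0.74 with it and 6.77 without it. The third gene (VIT_211s0118g00390) had the highest level of the family in summer, with 122, 87.0 and 81.1 FPKM against 69.3, 78.8 and 68.8 in winter, and did not pass (-0.40, adjusted p = 0.161). Summed over the 3 genes, FLS was at 138, 95.4 and 88.1 FPKM in summer and 173, 179 and 164 in winter.

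Dihydroflavonol reductase (DFR) opens the route to anthocyanins and flavan-3-ols. One of the 4 genes that the study's list annotates as flavanone 4-reductase, an activity carried by the same enzyme, was upregulated. VIT_215s0048g01000 had 34.8, 34.5 and 32.5 FPKM in summer and 68.6, 66.4 and 68.8 in winter (log2 fold change 1.04 ± 0.25, adjusted p = 0.00103; 1.09 without summer replicate 1), just inside the fold condition. Its neighbour VIT_215s0048g01010 had a log2 fold change of 0.78 (adjusted p = 0.00104) and 1.02 without summer replicate 1, just past it. Estimated counts of both were not whole in 3 of 6 libraries. Of the other DFR genes, VIT_218s0001g12800 had 30.6, 44.2 and 42.5 FPKM in summer and 57.3, 52.4 and 52.4 in winter (0.52) and VIT_216s0039g02350 did not exceed 3.07 FPKM.

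Leucoanthocyanidin dioxygenase (LDOX) forms anthocyanidins. VviLDOX (VIT_202s0025g04720) had 23.95, 12.3 and 6.97 FPKM in summer and 26.0, 27.1 and 30.4 in winter, with a log2 fold change of 0.93 (adjusted p = 0.00397) and 1.54 without summer replicate 1. VviLDOX (VIT_208s0105g00380) was near one level, at 27.9 to 47.9 FPKM in summer and 39.2 to 43.1 in winter (0.05 ± 0.28).

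The flavan-3-ol branch held 2 of the 3 downregulated genes. Leucoanthocyanidin reductase (LAR) and anthocyanidin reductase (ANR) make the building blocks of tannins. VviLAR2 (VIT_217s0000g04150) had 23.1, 20.7 and 11.96 FPKM in summer and 7.0, 8.53 and 7.6 in winter, without overlap (log2 fold change -1.05 ± 0.32, adjusted p = 0.00817). Without summer replicate 1 it did not pass (-0.77, adjusted p = 0.0656). VviLAR1 had a log2 fold change of -0.51 (adjusted p = 0.106). VviANR (VIT_200s0361g00040), at 1.65, 0.76 and 0.74 FPKM in summer and 0.27, 0.53 and 0.62 in winter, was called downregulated (-1.17 ± 0.49, adjusted p = 0.0449) but not without summer replicate 1 (-0.61, adjusted p = 0.361).

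At the anthocyanin end, VviUFGT (VIT_216s0039g02230), which adds glucose to anthocyanidins, had 13.0, 8.32 and 6.63 FPKM in summer and 6.35, 6.61 and 6.37 in winter, a log2 fold change of -0.51 that did not meet the fold condition and was -0.14 without summer replicate 1. The modifying enzymes VviAOMT, a methyltransferase, and Vvi3AT, an acyltransferase, had at most 3 counts in every library of both seasons. Vvi3AT met the criteria with 1, 2 and 1 counts in summer and 0 in winter, and no fold is given for it.

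Among the 18 regulators, 5 were upregulated (27.8%, beside 9.96% of all genes) and 1 downregulated (5.6%, beside 13.6%), and the counts were 6 and 1 without summer replicate 1. According to the paper, MYBA genes take part in regulating anthocyanin synthesis through UFGT. Whether the copies of ‘Victoria’ are active was not tested. The paper reports that ‘Victoria’, a white grape, held no anthocyanins, and VviUFGT was not upregulated here. VviMYBA2 (VIT_202s0033g00390) had 43.9, 30.5 and 18.6 FPKM in summer and 242, 250 and 239 in winter (log2 fold change 3.00 ± 0.30, adjusted p = 4.00e-09; 3.38 without summer replicate 1). VviMYBA3 (VIT_202s0033g00450) had 10.4, 9.22 and 5.32 FPKM in summer and 98.5, 97.0 and 97.7 in winter (3.58 ± 0.41, adjusted p = 3.57e-08; 3.82 without summer replicate 1). VviMYBA1 was at 0, 0.63 and 0 FPKM in summer and 0, 0.21 and 0 in winter and did not pass. The MYBA genes are near-identical copies with counts that were not whole in some or all libraries, and how reads divide among them is uncertain.

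Of the 6 bZIP and light-signalling regulators, a group put together for this report, 3 were upregulated, beside 9.96% of all genes tested. VvibZIPC22 (VIT_207s0005g01450), a bZIP factor of the flavonol branch, had 17.1, 25.8 and 20.6 FPKM in summer and 76.3, 78.7 and 79.2 in winter (log2 fold change 1.93 ± 0.26, adjusted p = 4.38e-07; 1.82 without summer replicate 1). VviHYH (VIT_205s0020g01090), a relative of the light-response factor HY5, had 8.06, 5.09 and 4.97 FPKM in summer and 14.4, 15.2 and 13.0 in winter (1.25 ± 0.32, adjusted p = 0.00151; 1.48 without summer replicate 1). VviCOP1-1 (VIT_212s0059g01420), of the ubiquitin ligase that acts on HY5 in Arabidopsis, had 4.28, 5.06 and 5.25 FPKM in summer and 10.2, 9.03 and 10.4 in winter (1.05 ± 0.10). In all of these, every winter library was above every summer library. VviCOP1-1 was at 1.00 without summer replicate 1, just under the fold condition.

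VviHY5 itself had 30.8, 21.1 and 16.8 FPKM in summer and 15.5, 12.2 and 14.5 in winter by replicate and did not pass (log2 fold change -0.40, adjusted p = 0.148). The UV-B receptor VviUVR1 (0.33, adjusted p = 0.217) and VviCOP1-2 (0.60, adjusted p = 0.0121, below the fold condition) did not pass either. VviMYBF1 (VIT_207s0005g01210), an activator of flavonol synthesis, had 1.14, 2.81 and 2.47 FPKM in summer and 1.40, 0.77 and 0.77 in winter. It was called downregulated at this low level (-1.03 ± 0.44, adjusted p = 0.0486; -1.34 without summer replicate 1), with overlapping seasons, and lost the call in 10 of 17 alternative settings.

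Of the remaining regulators, VviMYB4a, a repressor of phenylpropanoid genes, had 59.7, 25.3 and 23.1 FPKM in summer and 46.2, 48.2 and 49.2 in winter, so that its log2 fold change was 0.42 (adjusted p = 0.114) with all libraries and 1.05 (adjusted p = 3.28e-06) without summer replicate 1. VviMYB5b, a general activator of the pathway, had 17.9, 16.5 and 17.2 FPKM in summer and 34.0, 33.0 and 30.8 in winter, a change of 0.96 ± 0.11, or 1.02 without that library. These values lie just outside and just inside a fold change of 2. VviMYB5a had 3.28, 8.03 and 8.28 FPKM in summer and 9.59, 11.7 and 9.13 in winter. Its log2 fold change of 0.70 (adjusted p = 0.0304) did not meet the fold condition and was 0.38 without summer replicate 1. The paper reports VviMYB5a and VviMYB5b as upregulated in winter in both varieties, without naming a stage. The tannin activator VviMYBPA1 (-0.91, adjusted p = 0.143) and the repressor VviMYBC2-L1 (-0.48, adjusted p = 0.124) did not pass, and summer replicate 1 was the highest library in both. The bHLH partner VviMYC1 had -0.06 ± 0.15, and VviMYCA1 had 0.45 ± 0.15 and VviWDR -0.62 ± 0.14, neither of which met the fold condition.

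The same genes were set beside 3 further season effects, each with libraries of its own: the neighbouring stages of ‘Victoria’, and the same stage of ‘Muscat Hamburg’. Of the calls at ‘Victoria’ E-L 36, 1226 upregulated and 1898 downregulated genes had the same call at E-L 38, which is 62.4% and 70.6% of the E-L 36 lists and 57.2% and 60.4% of the E-L 38 lists. With E-L 35 the shared calls numbered 574 (29.2% and 34.5% of each list) and 617 (22.9% and 35.2%), and with ‘Muscat Hamburg’ at E-L 36 they numbered 895 (45.5% and 46.3%) and 1014 (37.7% and 57.3%). Of the upregulated and the downregulated genes, 17 and 6 had the opposite call at harvest, 87 and 200 at the onset of veraison, and 30 and 97 in ‘Muscat Hamburg’. Of all genes tested, 10.9% were upregulated in winter and 15.9% downregulated at E-L 38. The shares were 8.44% and 8.87% at E-L 35, and 9.8% and 8.97% in ‘Muscat Hamburg’ at E-L 36. The shared calls were counted with summer replicate 1 included, and not without it.

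Tested directly, the season effect of ‘Victoria’ at E-L 36 differed from that at E-L 35 in 4412 genes (22.4%), from that of ‘Muscat Hamburg’ at E-L 36 in 2052 (10.4%), and from that at E-L 38 in 848 (4.3%). Without summer replicate 1 these counts were 4877, 2541 and 1376. When both E-L 36 and E-L 38 summer replicate 1 were left out, an alternative chosen after seeing the data, the last count was 1622.

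Flavonoid genes, like all genes tested, differed most often from E-L 35. There 34 of the 64 were upregulated in winter (beside 8.44% of all genes) and 0 downregulated in edgeR (beside 8.87%; 3 at an unadjusted p under 0.05), and the difference was negative in 26 genes and positive in 4 (beside 12.7% and 9.63% of all genes). In ‘Muscat Hamburg’ of the same stage, 35 were upregulated (beside 9.8%) and 3 downregulated (beside 8.97%), and the difference of ‘Victoria’ minus ‘Muscat Hamburg’ was negative in 13 and positive in 2 (beside 6.24% and 4.16%). At harvest, 10 were upregulated (beside 10.9%) and 7 downregulated (beside 15.9%; 26.8% in either direction), and the difference was positive in 8 and negative in 1 (beside 2.67% and 1.63%). Without summer replicate 1 the negative and positive differences numbered 20 and 4 from E-L 35, 19 and 3 from ‘Muscat Hamburg’, and 1 and 7 from E-L 38. The 7 PAL copies beginning VIT_216s0039, of which 0 passed here, were all upregulated in the earlier ‘Victoria’ stage and in E-L 36 berries of ‘Muscat Hamburg’. The difference itself passed in 6 of the 7 for the earlier stage and in 3 of the 7 for ‘Muscat Hamburg’.

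**Figure D5:**
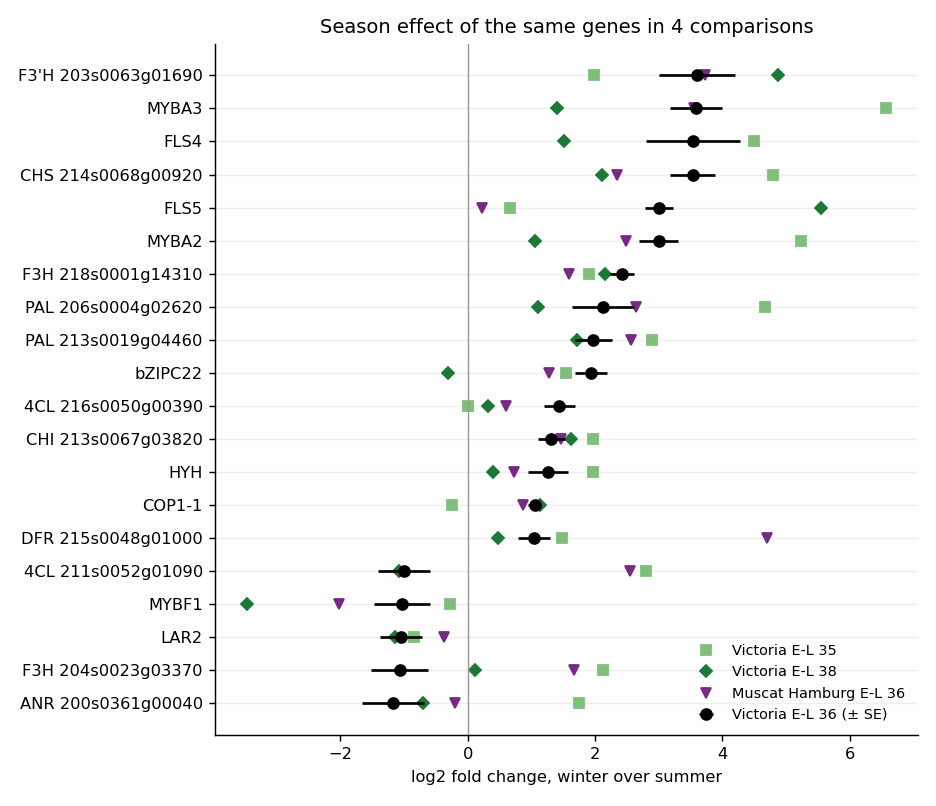
Log2 fold change, winter over summer, of 20 flavonoid list genes past the threshold at ‘Victoria’ E-L 36 (black, with the standard error), beside the earlier and the later stage of ‘Victoria’ and E-L 36 of ‘Muscat Hamburg’, where values with a standard error of 2 or more are left out. MYBA2 and MYBA3 (3.00 and 3.58 at E-L 36) have values of 5.24 and 6.58 at the onset of veraison and 1.06 and 1.39 at harvest, whereas FLS5 goes from 0.67 to 3.01 and 5.54.

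The order over the stages was not the same for all genes. For VviMYBA2 the log2 season effect was 5.24 at the onset of veraison, 3.00 at its completion and 1.06 at harvest, and for VviMYBA3 it was 6.58, 3.58 and 1.39; both E-L 36 values differed from each neighbour beyond the threshold. VviFLS5 ran the other way, with 0.67, 3.01 and 5.54, again with both differences past the threshold, and was at 0.23 in ‘Muscat Hamburg’ at E-L 36. VvibZIPC22 had 1.54, 1.93 and -0.31, and its effect at E-L 36 was above that at E-L 38 by 2.25 ± 0.36 (adjusted p = 0.000237). Vvi4CL (VIT_216s0050g00390) was past the threshold at E-L 36 (1.44) but not one stage earlier (0.01 ± 0.24) or later (0.33). With all libraries both differences passed, that from E-L 38 narrowly (1.11, adjusted p = 0.037). Its E-L 36 effect was 1.30 without summer replicate 1, and the differences in this paragraph are not given without that library.

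Between varieties, VIT_215s0048g01000 (DFR) had a season effect of 1.04 in ‘Victoria’ and 4.70 in ‘Muscat Hamburg’, a difference of -3.65 ± 0.42 (adjusted p = 7.64e-07). VviHY5 had -0.40 in ‘Victoria’ and -2.17 in ‘Muscat Hamburg’, a difference of 1.77 (adjusted p = 6.03e-04). For VviCHS (VIT_214s0068g00920), VviMYBA2 and VviMYBA3 the varieties had a difference in season effect of 1.19 (adjusted p = 0.0645), 0.51 (adjusted p = 0.406) and 0.03 (adjusted p = 0.987) and did not pass, which does not show that the varieties act alike.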

How the data were processed

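Berries were freed of seeds and measured by single-read RNA-seq, and the authors aligned the reads to the grapevine genome 12X V2. Bowtie is named in the submitters' processing notes, and the counting program is not given in the sources used here. Each deposited list pairs a gene with its estimated count, which is not normalized and not always whole, and with its FPKM value (fragments scaled to transcript length and library size), both computed by the authors. Genes left out of a list were set to 0. A further series table held 36 columns whose headings matched no label, and these were not used.

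Rounded estimated counts were fitted in edgeR 4.0.16 (R 4.3.3; filterByExpr, which kept 19736 of 28119 genes, TMM scaling, 1 quasi-likelihood model of 12 groups of 3 libraries, Benjamini-Hochberg adjustment). The common dispersion was 0.0294. All 36 libraries shared the estimate of the spread. A call needed an adjusted p up to 0.05 and a 2-fold change or more. Standard errors (SE) are the log2 fold change divided by the root of the F statistic. With 3 against 3 libraries an exact permutation test of 1 gene cannot go below p = 0.1, so none was used. The step was tested on simulated counts, where 200 of 200 genes changed 4-fold were recovered among 18611 genes and 2 unchanged genes were called. The simulation gave every gene the common dispersion and all libraries one mean profile, and it left genes with low counts unchanged. It held no library that stood apart like summer replicate 1. It therefore does not show how reliable calls of smaller changes, or calls at low counts, are here. A count limit of 3 per library served as the floor for genes at 0, and counts carry counting error beside the spread between replicates. Alternatives used DESeq2 1.42.0, limma 3.58.1 on log2(FPKM + 1) and log2(FPKM + 0.1), other scalings, filters and thresholds, only the libraries compared, a replicate block, and each library left out.

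Members and lists were chosen with earlier results of these data known. The 64 flavonoid genes come from the study's own list. Named genes were the flavonoid genes past the threshold, other flavonoid genes for contrast, and the 2 highest and 2 lowest identifiers without a description. Of the identifiers, 0 were paired with a name in the reference table at hand, so further lists by gene description and cell type markers were not used.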

Additional observations from a re-analysis of the deposited data

Results flagged for a closer look

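Among the named genes past the threshold at ‘Victoria’ E-L 36, the season effect differed between that comparison and another, by the edgeR test of the difference itself (adjusted p at most 0.05 and a difference of at least 1 on the log2 scale), in the cases that follow, each given as a log2 difference. Against ‘Muscat Hamburg’ at E-L 36 the difference was -3.56 for Vvi4CL (VIT_211s0052g01090), -2.73 for VviF3H (VIT_204s0023g03370), 2.78 for VviFLS5, -3.65 for DFR VIT_215s0048g01000, -3.75 for VIT_207s0129g00240, and -5.66 for VIT_211s0016g04510. For VIT_207s0104g01340, at 0 counts in all ‘Victoria’ summer libraries of E-L 36, the fitted difference of 6.88 depends on the prior count, as does that of VIT_211s0016g04510.

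Against E-L 35 of ‘Victoria’ it was -2.54 for VviPAL (VIT_206s0004g02620), -3.80 for Vvi4CL (VIT_211s0052g01090), 1.43 for Vvi4CL (VIT_216s0050g00390), -1.26 for VviCHS (VIT_214s0068g00920), -3.20 for VviF3H (VIT_204s0023g03370), 2.34 for VviFLS5, -2.92 for VviANR, -2.24 for VviMYBA2, -2.996 for VviMYBA3, 1.29 for VviCOP1-1, -8.20 for VIT_207s0129g00240 and -8.46 for VIT_211s0016g04510. Against E-L 38 it was 1.11 for Vvi4CL (VIT_216s0050g00390), 1.42 for VviCHS (VIT_214s0068g00920), -2.53 for VviFLS5, 1.94 for VviMYBA2, 2.19 for VviMYBA3, 2.43 for VviMYBF1 and 2.25 for VvibZIPC22. Groups of 3 libraries are too small for a test of single outlying values, and summer replicate 1 is described in the report. All differences listed here are with that library included.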

How the results depend on the processing

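Of the 25 genes named for a call, 17 kept it under each of the alternatives that gave a value (17 at most), 8 lost it under at least 1, and VviF3H (VIT_204s0023g03370) reversed, to 0.28 without summer replicate 1 (-1.469 to 0.28 with 1 library left out). Against 4654 calls, 2857 remained in number with at least 10 counts in every library compared, 2919 with limma on log2(FPKM + 1) and 10038 without the fold condition. DESeq2 called 2035 genes upregulated and 2783 downregulated, and leaving out 1 library gave 4384 to 4765 calls. The replicate numbers gave no sign of pairing, with deviations of same-numbered summer and winter libraries correlated at -0.007 to 0.002. With 3 libraries per group these values cannot show whether same-numbered libraries shared vines. The replicate block gave 1956 upregulated and 2479 downregulated genes, 2 downregulated flavonoid genes and 228 of the lowered ripening genes. The difference from ‘Muscat Hamburg’ (2052 genes) became 3725 without the fold condition and 1260 at an adjusted p of 0.01, and that from E-L 35 (4412) became 7777 without the fold condition. The difference from E-L 38 (848) became 512 with only the libraries compared, 1749 without the fold condition, 378 at an adjusted p of 0.01, and 640 to 1376 with 1 library left out. It was 1622 without the first summer replicate of both stages.

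Flavonoid genes upregulated (15) became 23 without the fold condition. Those downregulated (6) became 3 without a filter and 1 with either limma setting, with only the libraries compared and at an adjusted p of 0.01, and 1 to 5 with 1 library left out. Raised ripening genes upregulated (64) became 42 with at least 10 counts and 29 with limma on log2(FPKM + 1), and lowered ones downregulated (380) became 176 and 222. With scaling by library size only, the median difference of all genes moved from 0.001 to -0.11 for ‘Muscat Hamburg’ and from -0.006 to 0.11 for E-L 35. With limma on log2(FPKM + 0.1), 57.4% of the calls against E-L 35 were positive, in place of 43.1%.

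Depth limits the genes near 3 counts, where 10 genes passed the threshold with both seasons at that limit. Summer replicate 1 widened the summer spread, and its label was not changed.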
